A study of Homo sapiens with 6 samples.

Results

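The polypeptide GalNAc-transferases GALNT1, GALNT2, GALNT3, GALNT4, GALNT5, GALNT6, GALNT7, GALNT10, GALNT12, and GALNT14 were measured in 3 oral squamous cell carcinoma (OSCC) lines with and without knockdown of the long noncoding RNA DLEU1. The 10 genes were taken by the gene name of the probe, which gave 11 of the 50599 probes on the array. The family was chosen by a measured value, the fold change of GALNT3, which was lower after knockdown in all 3 lines, so the response of these genes to the knockdown is described below without p-values, and their calls are counts beside those of all probes from which nothing is read. The differences of their levels between the cell lines played no part in that choice and were tested.

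The established OSCC lines were HSC-3, KON, and Ca9-22. Each was transfected with siDLEU1-2 (siDLEU1 in the labels), a small interfering RNA that targets DLEU1, or with control siRNA (siCtrl). Total RNA was collected after 72 h, and 100 ng was labeled for hybridization to a one-color Agilent array, which gave 1 array for each line under each siRNA and 6 in total. The 3 lines are the only replicates of the knockdown, and its p-values measure the spread of the change between these lines. No line has a replicate culture under the same siRNA. P-values between lines therefore rest on that same spread of the siRNA change, and not on replicate cultures of a line. Effects particular to the single siRNA and effects of losing DLEU1 cannot be told apart.

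GalNAc-transferases start mucin-type O-glycosylation in the Golgi by moving N-acetylgalactosamine (GalNAc) from UDP-GalNAc to serine or threonine. Members differ in the peptides they prefer, and some act mainly on peptides that already carry GalNAc. Other enzymes then lengthen the sugar or cap it with sialic acid, and shortened O-glycans are a known trait of many carcinomas.

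The antisense strand of siDLEU1-2 is shown first because its seed, bases 2 to 8 in capitals, can pair with messages other than its target. Below it stand the first 30 of the 60 bases of the probes for GALNT3, GALNT12, and GALNT14, the members that differ most among arrays, in lower case because none holds a seed match.
siDLEU1-2 antisense: uUAAGUGCgauaaccccugua
GALNT3 probe: atttcaaatgcagaatacttgactcattta
GALNT12 probe: gagaatcagaagttcatcttgcaggaggat
GALNT14 probe: aagccttctttttcactaggccaggactac
The letters that pair with the seed are GCACTTA, read on the message strand. They were in none of the 11 GALNT probes, nor were the hexamers CACTTA and GCACTT that they contain. The heptamer was in 0.273% of all probes, and the transcripts beyond the probes were not searched. The longest run of bases that a GALNT probe had in common with a probe of another family gene was 7 to 9.

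On hg19 the GALNT3 probe lies at chr2:166604416-166604475 on the minus strand, at base 3104 of the transcript NM_004482. The GALNT12 probe spans chr9:101608379-101611266 and crosses an intron, since 60 bases extend over 2888 in the genome. The GALNT14 probe lies at chr2:31133370-31133429. GALNT1 has 2 probes, at chr18:33291320-33291379 and chr18:33289953-33290012. The remaining members have 1 probe each, and the GALNT5 probe also crosses an intron (chr2:158157498-158162306). Exon and UTR annotation on hg19 was not used here.

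Levels are log2 processed signals relative to the 75th percentile of each array, so 0 is that percentile, and levels are compared for 1 probe at a time. The 75th percentile lay at a signal of 200 to 257, and 43.0% to 45.7% of the probes were well above background, the scanner software's call that a spot is brighter than its surroundings. Probes without that call are named dim, and for them the array gives only an upper bound. DLEU1, the check of the siRNA, was lower by 4.10, 3.63, and 3.44 on the log2 scale in HSC-3, KON, and Ca9-22. Of 8 squamous epithelial marker genes, 7 had a probe well above background on all 6 arrays, TP63 being above background on 5. TP63 and KRT6A were lower and CDH1 was higher after siDLEU1-2 by over 2-fold in every line. SFN was lower in all lines (adjusted p = 0.047 from limma), and the mesenchymal marker COL1A1 was 4.23-fold, 2.50-fold, and 1.95-fold higher (adjusted p = 0.0423 from limma). VIM, the other mesenchymal marker measured, had log2 fold changes of 0.24, −0.21, and 0.69 (adjusted p = 0.505 from limma). EPCAM was higher in all lines without passing, and KRT17 was higher in Ca9-22 and lower in the other lines. KRT5 was lower in all lines without passing, at −1.32, −0.21, and −1.89 (adjusted p = 0.114 from limma). The KRT14 probes disagreed, and none passed. Their log2 fold changes were −3.01, −0.99, and −1.16, then −2.77, −1.07, and −0.87 with a dim array in Ca9-22, and −1.14, −0.31, and 1.47. The part of such shifts in the results below was not tested. Of the markers of other cells, COL1A2 and PDGFRB were dim on all arrays, VIM, COL1A1, and CD14 were well above background on all 6, and PTPRC, CD3E, PECAM1, CDH5, and VWF had a probe so on 1 to 5 arrays. In these RNA pools, fewer cells of a kind and less message per cell cannot be told apart.

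GALNT3, which is known for glycosylating the hormone FGF23, was well above background on all 6 arrays. Its level in HSC-3 was 1.95 under siCtrl and −1.0 under siDLEU1-2. In KON it was 1.41 and −2.40, and in Ca9-22 it was 0.90 and −2.22. Every siDLEU1-2 array was below every siCtrl array, so the groups did not overlap, a pattern that 5.36% of the 19956 probes kept for this comparison had. Probes were kept where they were well above background on at least 1 array of each line. The log2 fold changes were −2.94 (HSC-3), −3.81 (KON), and −3.12 (Ca9-22), averaging −3.29 ± 0.46 (SD, n = 3 lines). In processed signal these are falls from 839 to 101, from 681 to 46.3, and from 471 to 52.3, so that 13%, 7.14%, and 11.5% of the siCtrl level was left. The size rests on the background correction, because with normexp, which shrinks differences at low signal, the mean was −2.40.

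**Figure D1:**
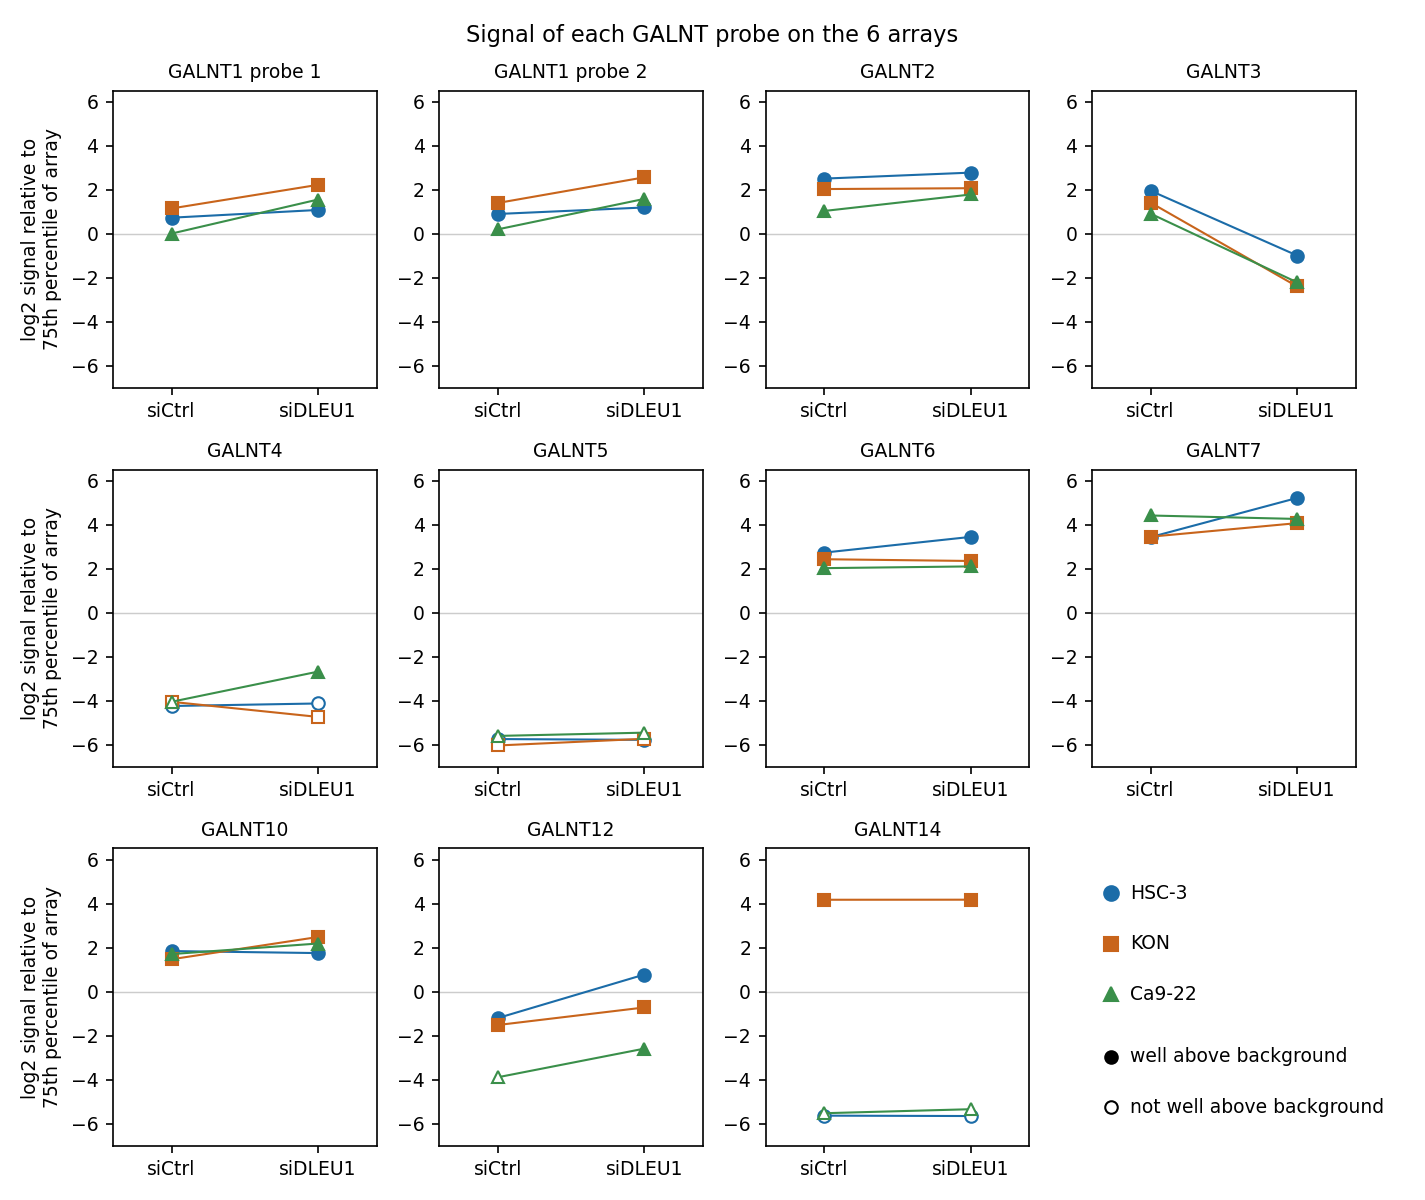
Log2 signal relative to the 75th percentile of the array (y axis) for each GALNT probe after siCtrl and siDLEU1 (x axis), where a line joins both arrays of a cell line and open symbols are dim. GALNT3 is the panel in which all 3 lines go down, and GALNT14 is well above background in KON alone, at 4.17 on both arrays.

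None of the other members had a lower level in every line. GALNT12, whose inherited variants have been linked to colorectal cancer, went from −1.20 to 0.77 in HSC-3, from −1.52 to −0.72 in KON, and from −3.89 to −2.59 in Ca9-22. The siRNA groups overlapped, and Ca9-22 was lowest under both siRNAs. Its siCtrl array was dim in Ca9-22, where GALNT12 was therefore at least 1.80-fold higher after siDLEU1-2, beside 3.94-fold in HSC-3 and 1.74-fold in KON. The mean log2 fold change was 1.36 ± 0.59 (SD, n = 3 lines) with the dim array at its measured value, 1.21 with dim values raised to the floor, and 0.79 with normexp.

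GALNT1, a broadly expressed transferase, was read by both of its probes in the same way. The first went from 0.72 to 1.07 in HSC-3, from 1.14 to 2.21 in KON, and from 0.00 to 1.55 in Ca9-22. The second went from 0.89 to 1.19, from 1.39 to 2.56, and from 0.19 to 1.58 in the same order. All 3 lines were higher after siDLEU1-2 by both probes, but the groups overlapped because the siCtrl level in KON was above the siDLEU1-2 level in HSC-3. The mean log2 fold change was 0.99 ± 0.60 for the first probe and 0.95 ± 0.58 for the second (SD, n = 3 lines).

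GALNT2, another broadly expressed transferase, went from 2.50 to 2.77 in HSC-3, from 2.02 to 2.06 in KON, and from 1.03 to 1.78 in Ca9-22. The mean log2 fold change was 0.35 ± 0.36 (SD, n = 3 lines), about as large as its spread. GALNT6, a transferase linked to fibronectin in breast cancer, went from 2.72 to 3.44 in HSC-3, from 2.42 to 2.34 in KON, and from 2.02 to 2.10 in Ca9-22. Its mean of 0.24 ± 0.42 came from HSC-3, and in KON and Ca9-22 both arrays were almost level.

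GALNT7 and GALNT10 act mainly on peptides that are already glycosylated. GALNT7 went from 3.43 to 5.21 in HSC-3 and from 3.45 to 4.06 in KON, and from 4.41 to 4.25 in Ca9-22. It was higher in HSC-3, by 3.44-fold, and nearly level in Ca9-22, and the mean was 0.75 ± 0.98 (SD, n = 3 lines). GALNT10 went from 1.84 to 1.75 in HSC-3, from 1.47 to 2.48 in KON, and from 1.70 to 2.18 in Ca9-22, with a mean of 0.47 ± 0.55. Here KON had the larger difference, 2.02-fold, and HSC-3 almost none.

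GALNT4, also a transferase of partly glycosylated peptides, was dim on 5 of 6 arrays and well above background, at −2.68, after siDLEU1-2 in Ca9-22, at least 1.69-fold above the siCtrl array of that line. GALNT5 was dim on all 6. GALNT14, which glycosylates the death receptors of the ligand TRAIL, was dim on all 4 arrays of HSC-3 and Ca9-22, and in KON its level was 4.17 under both siRNAs.

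**Figure D2:**
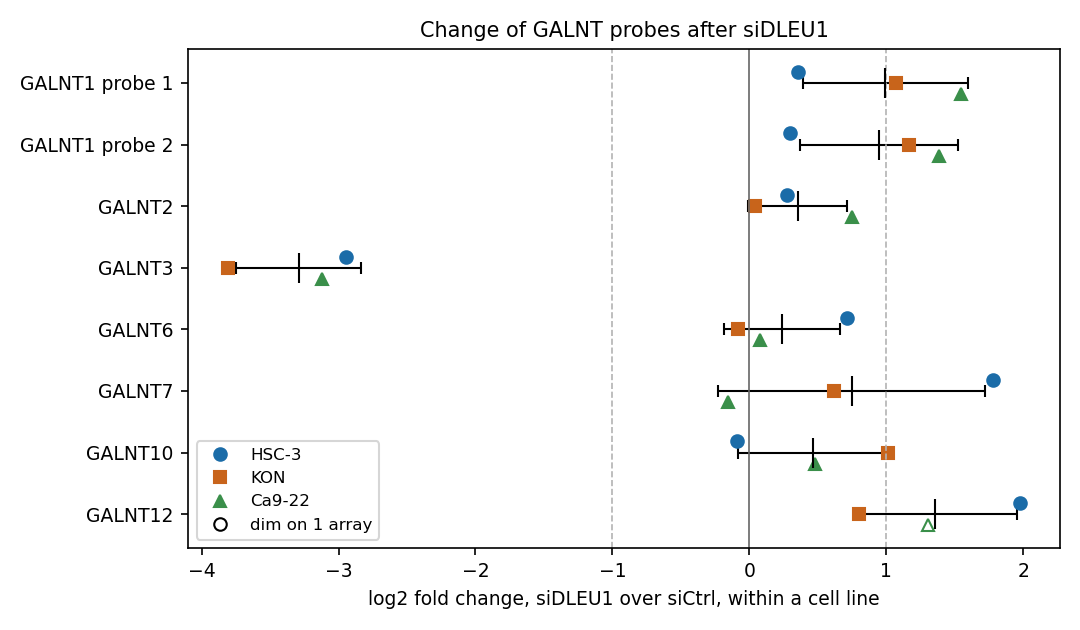
Log2 fold change of siDLEU1 over siCtrl within a cell line (x axis) for the 8 GALNT probes kept (y axis), with the mean as a vertical tick and the SD over 3 lines as a bar. Dashed lines mark 2-fold, the open triangle has a dim siCtrl array, and GALNT3 lies alone on the left at a mean of −3.29.

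Of the 11 GALNT probes, 8 from 7 genes were kept. Over 2-fold in all 3 lines was 1 of the 8, that of GALNT3, beside 4.38% of the 19956 probes in either direction and 2.08% lower. limma called 2 of the 8, lower for GALNT3 and higher for GALNT12, beside 8.5% of all probes called, 4.52% lower and 3.98% higher. The direction was higher in all 3 lines for 4 probes and lower for 1, beside 26.9% and 26.7% of all probes. The median log2 fold change of the 8 was 0.61 and that of all kept probes 0.01. The choice of the family used this same contrast, so nothing is read from these counts.

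The probes whose profile over the 6 arrays was nearest to that of GALNT3 were ranked among 15357 probes with a RefSeq symbol, each well above background on every array. The measure was the root mean square difference of log2 values centered on the mean of each probe. The nearest was CMPK1, a kinase of UMP and CMP, at 0.23. Its log2 fold changes were −2.75 (HSC-3), −3.92 (KON), and −3.45 (Ca9-22). TRIM14, an adaptor of antiviral signaling, followed at 0.45, and RCAN3, a regulator of calcineurin, at 0.51. RAB7L1, a small GTPase, was at 0.52 and TLR3, a receptor for double-stranded RNA, at 0.56. By this choice each of the 5 was lower after siDLEU1-2, and their log2 fold changes ran from −1.55 to −3.92.

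The levels of the members were also compared between the lines, with limma over 23700 probes, each well above background on both arrays of at least 1 line. The F-test for any difference between lines called 4 of the 9 GALNT probes kept (44.4%), beside 55% of all probes. The 4 were GALNT14, which was kept through KON alone, GALNT12, which was kept through HSC-3 and KON, GALNT2, and GALNT3. By pairs, limma called 1 GALNT probe between HSC-3 and KON (37.4% of all probes), 4 between HSC-3 and Ca9-22 (37.4%), and 2 between KON and Ca9-22 (35.9%). The call between HSC-3 and KON and 1 of those between KON and Ca9-22 were GALNT14, which had to differ, so nothing is read from them.

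GALNT14 was at least 217-fold higher in KON than in HSC-3 and at least 186-fold higher than in Ca9-22. The adjusted p of the limma F-test was 0.00105, and it was 0.00116 and 0.000831 for these pairs. The probe was kept through KON alone and its dim values entered at their measured level, so it had to differ, and the bounds are the measurement. KON arrays were near 4.17 and the other 4 between −5.65 and −5.34, so the lines lay far apart. HSC-3 and Ca9-22, both dim, have no order.

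GALNT12 was highest in HSC-3, then KON, then Ca9-22, where 1 of 2 arrays was dim and was used at its measured value. The probe was kept through HSC-3 and KON, the lines where it is high. With dim values raised to the floor the F-test gave an adjusted p of 0.00797 from limma. HSC-3 was above Ca9-22 by 3.03 on the log2 scale (95% interval 2.15 to 3.91, adjusted p = 0.00641 from limma). KON was above Ca9-22 by 2.12 (1.24 to 3.0, adjusted p = 0.014 from limma). HSC-3 and KON were not distinguished, at a difference of 0.91 (0.03 to 1.79, adjusted p = 0.0941 from limma). The F-test gave an adjusted p of 0.00793 with limma, and the call held under 13 of 14 other settings. The setting that ended it left out the siRNA term (adjusted p = 0.0714 from limma). Of 11 probes of the cell type markers well above background on all 6 arrays, 8 had this order of lines, and 4 of these, for KRT5, KRT14, VIM, and CD14, passed the F-test. Their part in the differences between lines was not tested.

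GALNT2 had its highest level in HSC-3 and its lowest in Ca9-22, a difference of 1.23 on the log2 scale (95% interval 0.58 to 1.88, adjusted p = 0.0227 from limma). KON lay between and differed from neither beyond the spread (adjusted p = 0.121 from HSC-3 and 0.106 from Ca9-22, limma). GALNT3 was also highest in HSC-3, above Ca9-22 by 1.13 (0.39 to 1.87, adjusted p = 0.0378 from limma). The difference of 0.97 between HSC-3 and KON did not pass (0.23 to 1.71, adjusted p = 0.0536 from limma), nor did that of 0.16 between KON and Ca9-22 (−0.58 to 0.90, adjusted p = 0.678 from limma). Under siCtrl the order of GALNT3 was HSC-3, KON, Ca9-22, and under siDLEU1-2 it was HSC-3, Ca9-22, KON. These F-test calls lie near the threshold, at adjusted p = 0.0316 for GALNT2 and 0.0449 for GALNT3 from limma, and held under 5 and 6 of 15 other settings. Quantile normalization ended both (0.0547 and 0.0513), and without the siRNA term GALNT3 was at 0.832. Leaving out any 1 array ended the call of GALNT2 (0.0518 to 0.116), and that of GALNT3 was lost on leaving out any array but KON siCtrl (0.0411 there, up to 0.226 without HSC-3 siDLEU1-2).

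GALNT6, GALNT1, GALNT7, and GALNT10 did not pass the F-test. The adjusted p from limma was 0.0589 for GALNT6, 0.124 and 0.0733 for the GALNT1 probes, 0.506 for GALNT7, and 0.847 for GALNT10. The intervals remain wide: for GALNT7, HSC-3 minus KON was 0.56 (95% interval −0.76 to 1.89), and for GALNT10 it was −0.18 (−1.02 to 0.66). In the pairwise comparison GALNT6 was higher in HSC-3 than in Ca9-22 by 1.02 (0.32 to 1.73, adjusted p = 0.0425 from limma).

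**Figure D3:**
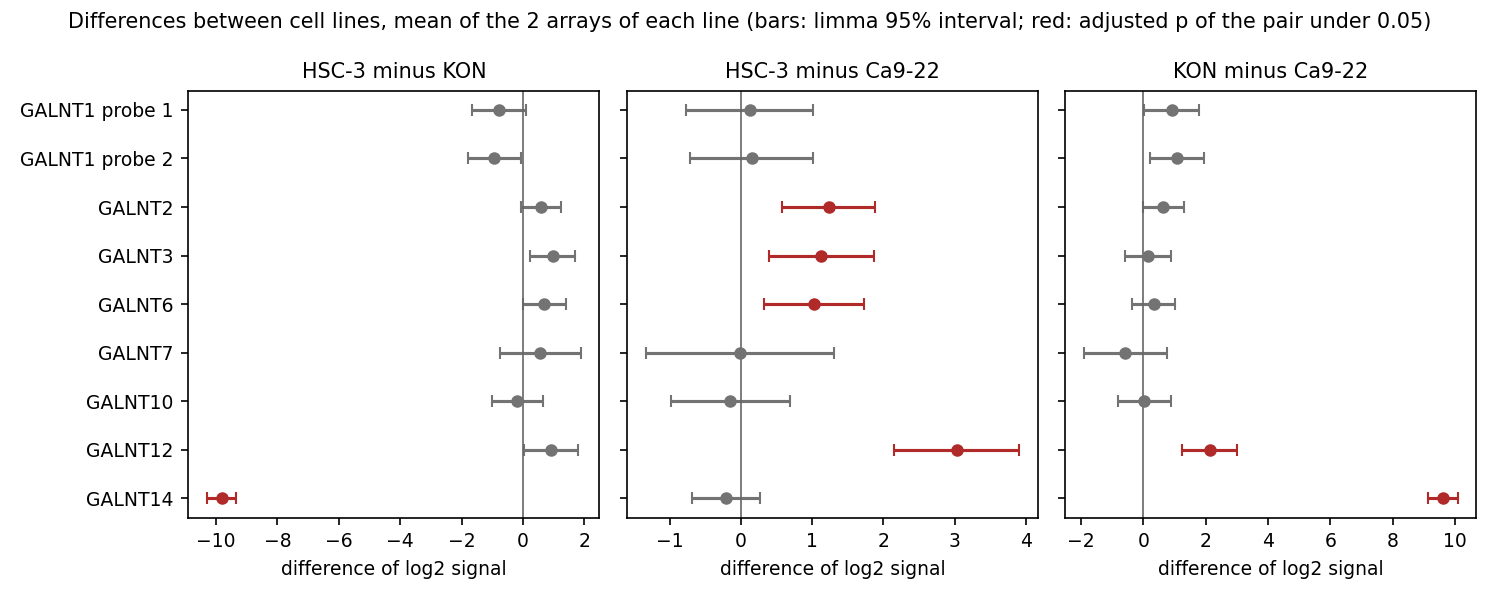
Difference between cell lines in log2 signal (x axis, with its own scale in each panel) for the 9 GALNT probes kept (y axis), each point the mean of both arrays of a line and each bar the 95% interval of limma. Red marks an adjusted p of the pair under 0.05, and for GALNT14, at −9.82 and 9.61, the dim side makes the point a measured value of which only a bound is given in the text.

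The other genes of mucin-type O-glycosylation were described from lists of 42 genes with 57 probes, of which 29 probes of 23 genes were kept. limma called 5 of the 29 (17.2%), 2 higher and 3 lower, beside 8.5% of all probes. One of the higher calls is a MUC4 probe that was kept only through the siDLEU1-2 arrays. Of the 29, 4 were over 2-fold in all 3 lines, beside 4.38% of all probes. The median log2 fold change of the 29 was 0.21. On all 6 arrays, 11 of the 42 genes were dim.

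Among the 10 other members of the transferase family, 2 were kept. GALNT18, under its older name GALNTL4 in the files, went from 2.62 to 1.10 in HSC-3, from 2.58 to 1.19 in KON, and from 1.62 to 0.56 in Ca9-22. Its groups did not overlap, and the mean log2 fold change was −1.32 ± 0.24 (SD, n = 3 lines; adjusted p = 0.0266 from limma). GALNT11 went from −0.44 to −2.39, from −0.20 to −2.41, and from −2.09 to −2.56 in the same order of lines. It did not pass, at −1.54 ± 0.94 (adjusted p = 0.0756 from limma), with a small difference in Ca9-22. The adjusted p from limma was 0.22 without HSC-3, 0.224 without KON, and 0.0487 without Ca9-22, and with normexp the mean was −0.82. GALNT8, GALNTL2, GALNTL1, WBSCR17, and GALNTL5 were dim on all arrays.

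Of the enzymes that lengthen the glycan, 7 probes of 5 genes were kept and 1 was called. B4GALT1, which adds galactose to N-acetylglucosamine, went from 1.95 to 2.94 in HSC-3, from 0.63 to 1.57 in KON, and from 0.43 to 1.06 in Ca9-22. It rose by 0.85 ± 0.20 on the log2 scale (SD, n = 3 lines; adjusted p = 0.044 from limma, lost at 0.0511 with centering on the median), although HSC-3 was so much higher at the start that the groups overlapped. The median of the 7 probes was 0.64, and 5 were higher in all 3 lines, beside 26.9% of all probes.

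Of the sialyltransferases, 6 probes of 6 genes were kept and 1 was called. ST6GALNAC2, which adds sialic acid to the first GalNAc, went from 3.55 to 2.46 in HSC-3, from 0.12 to −1.40 in KON, and from 2.16 to 0.63 in Ca9-22. It fell by over 2-fold in each line, while the groups overlapped (mean −1.38 ± 0.25, SD, n = 3 lines; adjusted p = 0.0257 from limma). The median of the list was 0.51, with 2 probes higher and 2 lower in all 3 lines, beside 26.9% and 26.7% of all probes.

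Of 3 genes that supply the sugar donor, GALK2, which phosphorylates free GalNAc, was called. Its level went from 2.55 to 1.33 in HSC-3, from 3.44 to 2.30 in KON, and from 3.09 to 1.76 in Ca9-22, a mean of −1.23 ± 0.10 (SD, n = 3 lines; adjusted p = 0.0249 from limma). The falls lay between 2.20-fold and 2.53-fold in the single lines, and the siRNA groups did not overlap.

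The proteins known to carry O-glycans gave 9 kept probes of 6 genes, and 1 was called, a probe of the membrane mucin MUC4 at chr3:195474164-195474223. It was dim on all 3 siCtrl arrays and stood at 1.70, 0.69, and −2.37 after siDLEU1-2 in HSC-3, KON, and Ca9-22. The probe was kept through the siDLEU1-2 arrays alone, so it had to differ, and the bounds are the measurement. They are at least 12.4-fold higher over the lines (adjusted p = 0.032 from limma, 0.0614 with dim values raised to the floor and 0.0533 with normexp, which ends the call), and at least 38.8-fold, 23.2-fold, and 2.10-fold in the single lines. The other 3 MUC4 probes did not pass, with means of 0.20, 0.26, and 0.64 (adjusted p = 0.41, 0.306, and 0.166 from limma), so the probes of this gene disagree. FGF23, the known substrate of GALNT3, was dim on all 6 arrays.

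**Figure D4:**
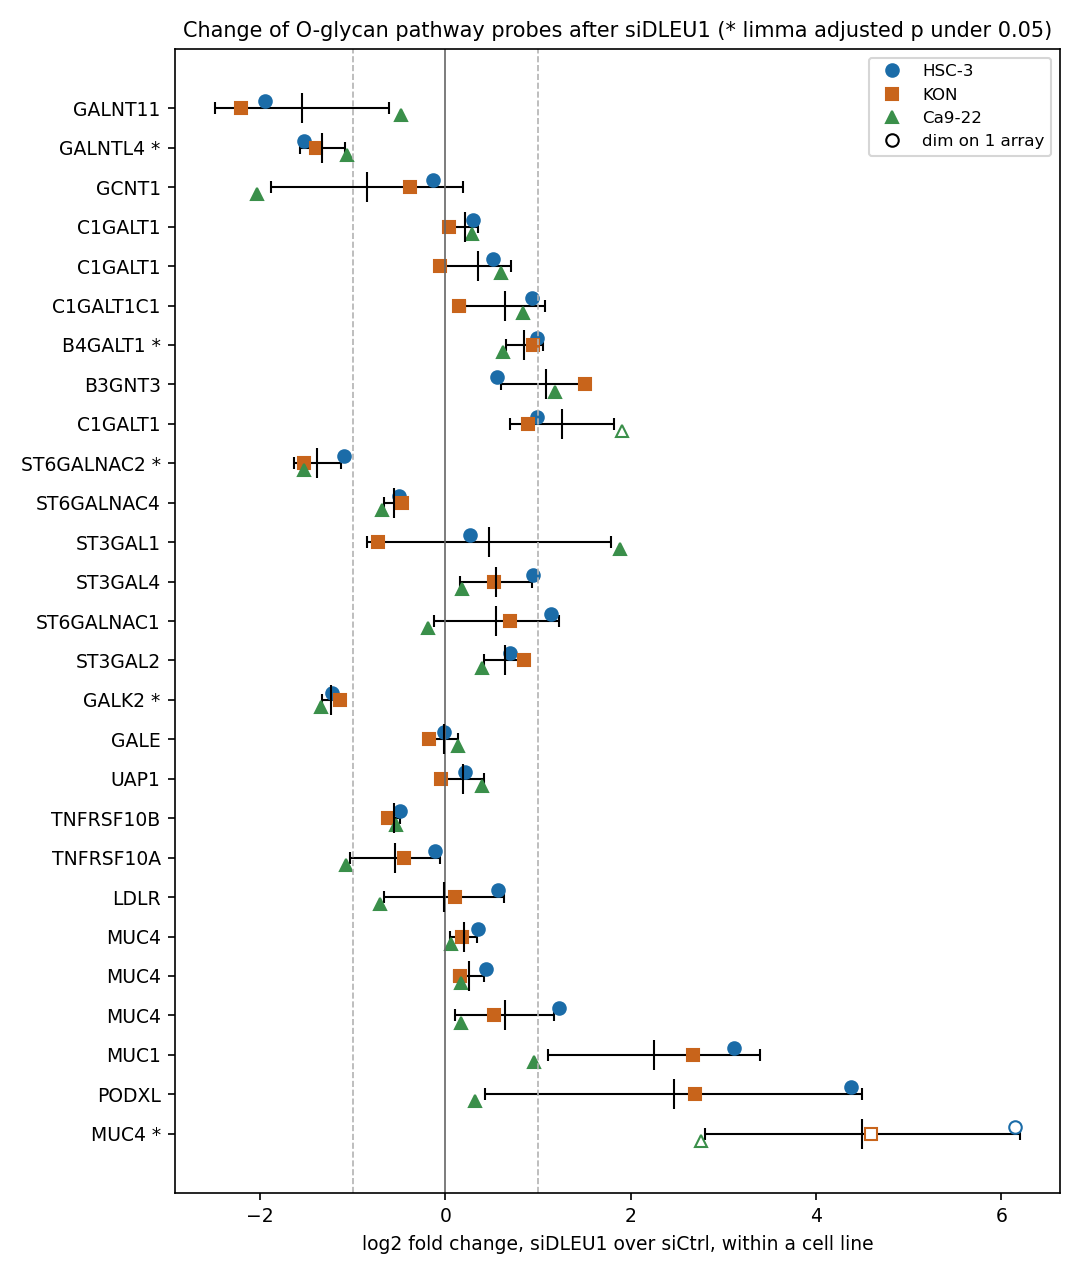
Log2 fold change of siDLEU1 over siCtrl within a cell line (x axis) for 27 of the 29 other O-glycan pathway probes kept (y axis, repeated names being separate probes), with the mean as a tick and the SD over 3 lines as a bar. Open symbols have a dim array, dashed lines mark 2-fold, and asterisks mark the 5 probes called by limma, of which GALNTL4, ST6GALNAC2, and GALK2 were lower and B4GALT1 and 1 MUC4 probe were higher.

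With 2 lines in place of 3, limma called 0 of all probes without HSC-3 or without KON. The 5 pathway calls could therefore not be checked that way. Of the 29 probes, 12 and 13 were at an unadjusted p under 0.05 from limma, beside 4547 and 4676 of all probes. The mean log2 fold change became −1.24, −1.28, and −1.18 for GALK2 and −1.23, −1.29, and −1.46 for GALNTL4 without HSC-3, KON, and Ca9-22. For the MUC4 probe it was 3.67, 4.45, and 5.37 in the same order, with the dim siCtrl arrays at their measured values. These MUC4 means are not bounds and check nothing. Without Ca9-22 limma called 3 of the 29, beside 244 of all probes, and the MUC4 probe was the only one of these among the 5.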

How the data were processed

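The authors deposited scanner output (Agilent Feature Extraction 10.7.3.1) with an intensity per spot, background-subtracted by the software, linear and not normalized between arrays, and flags (other) for background and outliers. The deposited series table holds the same intensity within 0.497%. From the deposited intensity, log2 was taken and the 75th percentile of each array subtracted. Control and outlier spots were left out, and spots of a probe were averaged. No spot was saturated. The number of arrays limits the precision.

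limma 3.58.1 in R 4.3.3 was fitted to all kept probes with siRNA and cell line as terms and Benjamini-Hochberg adjustment at 0.05. The arrays were paired by cell line, and deviations from the siRNA means correlated within pairs at 0.83, 0.81, and 0.82. The smallest p of an exact sign-flip test with 3 lines is 0.25, and 1 array per line and siRNA leaves the interaction untested. A bound compares with the higher of the dim signal and the lowest signal well above background on that array. On simulated arrays limma recovered 89.5% of 200 probes changed by 1.5 (log2) by siRNA, among 19956 probes, and called 18 unchanged probes.

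The members, lists, and alternatives were chosen with earlier results of these data known. All members are described. Of the pathway lists, genes with a kept probe called by limma or over 2-fold in all lines and the genes named as dim are described. The 5 probes most like GALNT3 were added. A MUC20 probe over 2-fold higher in all lines was not kept, because both of its Ca9-22 arrays were dim. GALNT11 and the uncalled MUC4 probes were added after their values were seen. All 72 listed gene names matched the RefSeq table of GRCh38.p14, used for names only. Some listed genes enter the counts but are not reported here. The siRNA sequence is the study's, and probe sequences and hg19 coordinates are those of the files. GeneSpring GX, named in the paper, was not used.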

Additional observations from a re-analysis of the deposited data

Results flagged for a closer look

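Some members differed in direction between lines after siDLEU1-2, with 1 array on each side, so the difference was not tested. The log2 fold change of GALNT6 was 0.71 (HSC-3), −0.08 (KON), and 0.08 (Ca9-22). That of GALNT7 was 1.78 (HSC-3), 0.62 (KON), and −0.16 (Ca9-22). That of GALNT10 was −0.09 (HSC-3), 1.01 (KON), and 0.48 (Ca9-22).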

How the results depend on the processing

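The GALNT counts on the siRNA contrast, which chose the family, are a description. Of the 8 GALNT probes kept, limma called 2, and 1697 of all probes. It called 1 under quantile normalization (1648 of all), centering on the median (1708), normexp background correction (2308), dim values raised to the floor (1941), only probes well above background on all 6 arrays (2065), or the mean of the probes of a gene (1258). It called 0 without a filter on dim probes (4 at an unadjusted p under 0.05), without the replicate block (1), and by the methods' t-test (1). Over all probes 0 were called under each of these 3 settings, and 6816, 1357, and 1373 were at an unadjusted p under 0.05. Leaving out 1 line gave 0 to 1 calls, and over all probes 0, 0, and 244 without HSC-3, KON, and Ca9-22. The probe over 2-fold in all lines became 2 at 1.5-fold, and 1 to 3 with a line left out. Of all probes, 874 passed 2-fold, 399 with normexp, 2351 at 1.5-fold, and 1307 to 1377 with a line left out. For the pathway, 5 calls became 8 with normexp, when calls over all probes also rose, and 0 to 3 with a line left out. They became 0 without a filter, without the replicate block, and by the methods' t-test (18, 5, and 5 unadjusted, beside 6816, 1357, and 1373 of all probes). The 4 pathway probes over 2-fold became 2 with normexp, 7 at 1.5-fold, and 4 to 7 with a line left out. For the differences between lines, 4 calls became 2 under quantile normalization, a percentile over commonly detected probes, or no filter, and 1 without the siRNA term (GALNT14). With 1 array left out 2 or 3 were called. Over all probes 13036 became 8258 without the filter, 8199 without the siRNA term, and 7248 to 8840 with an array left out. Between lines, 6 GALNT probes were called with normexp (13935 of all probes) and 5 with centering on the median (13530) or dim values raised to the floor (13405). For siDLEU1-2 against siCtrl, no called mean changed its direction, and of the uncalled the GALNT6 mean went from 0.24 to −4e-04 without HSC-3. The direction of the differences between lines was not followed under the other settings. The cause of these shifts was not tested. Changes of dim probes are poorly measured.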
